A study of Canis lupus familiaris with 15 samples.

Results

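A group of 95 genes was lower than in untreated cells after hepatocyte growth factor (HGF) and was still lower when HGF was given together with either of 2 inhibitors. They were 0.924% of the 10287 genes measured in MDCK (Madin-Darby canine kidney) cells, a long-used dog kidney line whose cells grow as a polarised epithelial sheet on a porous filter. Genes were chosen by the array intensities themselves: a gene was taken when the mean log2 intensity of 1 of its probe sets was at least 0.7 below Control with HGF, with HGF and the first inhibitor, and with HGF and the second. Their differences from Control are given here as a description, with no test. Of 1329 genes with a probe set at or below -0.7 with HGF alone, these were 7.15%. Over all 24904 probe sets kept, 11.5%, 2.83% and 2.18% were at or below -0.7 in the 3 groups in that order.

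Total RNA of 15 cultures was hybridised to Affymetrix canine arrays, with 1 array per culture, and all cells grew on Transwell filters for 7 days in MEM with 5% fetal bovine serum. Control cultures received medium only (n = 4). HGF cultures received 100 ng/ml of HGF for 24 h (n = 4), HGF + PD cultures the same HGF with PD09859 at 50 uM (n = 4), and HGF + UO cultures the same HGF with UO126 at 10 uM (n = 3). Both compounds are MAPK inhibitors by the title of the series, and their spellings were read as the MEK inhibitors of nearly the same names. All groups are 1 cell line. Cells with a compound but no HGF were not analysed here, and a vehicle is not stated in the sources used. An HGF effect that an inhibitor did not reverse and an effect of the inhibitor itself cannot be told apart in these arrays.

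HGF binds the receptor tyrosine kinase MET. Active MET recruits adaptors such as GAB1 and starts several pathways side by side, among them RAS, RAF, MEK and ERK, PI3K and AKT, and STAT3. In MDCK cells HGF is known for loosening the epithelial sheet, scattering cells and driving tubule formation. MEK inhibitors block the step just above ERK.

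The arrays carried the RNA of epithelial cells. The summed intensity of 7 measured kidney epithelium markers, among them EPCAM, KRT8 and KRT18, was 104560 to 114670 in Control and 74713 to 95390 in the HGF groups. The 4 measured fibroblast markers summed to 236 to 285 over all arrays, and 3 endothelial markers to 403 to 504. The sum of 3 leukocyte markers was 79.6 to 95.3 in Control and both inhibitor groups and 109 to 352 with HGF, where CD68 averaged 6.28 on the log2 scale against 3.25 in Control. The log2 difference between the 3' and 5' actin probe sets, a sign of RNA length, was 2.24 ± 0.05 (SD, n = 4) in Control, 1.48 ± 0.08 with HGF, 2.13 ± 0.07 with HGF + PD and 2.15 ± 0.04 (n = 3) with HGF + UO. This measure thus stood apart in HGF and lay close to Control in both inhibitor groups. Its part in the HGF values was not tested.

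The fall with HGF was deeper than the fall that was left under the inhibitors. The median difference of the 95 genes from Control was -1.56 with HGF, -1.10 with HGF + PD and -1.0 with HGF + UO on the log2 scale, and the median over all 10287 genes was -0.01 in each of these 3 comparisons. In RNA from whole cultures, fewer cells that express a gene and less RNA of it per cell cannot be told apart. The 1017 other genes that were at or below -0.7 with HGF by their brightest probe set had medians of -1.11, -0.02 and -0.05. Dividing each inhibitor group's difference from Control by that of HGF gave a median of 77.5% with HGF + PD and 72.9% with HGF + UO. This share ran from 17.8% in VNN1 to 314% in EGR1 with HGF + PD, and from 18.3% in TXNIP to 264% in EGR1 with HGF + UO. It was under 50% in 19 genes and at or above 100% in 28 with HGF + PD, and in 25 and 20 genes with HGF + UO.

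**Figure D1:**
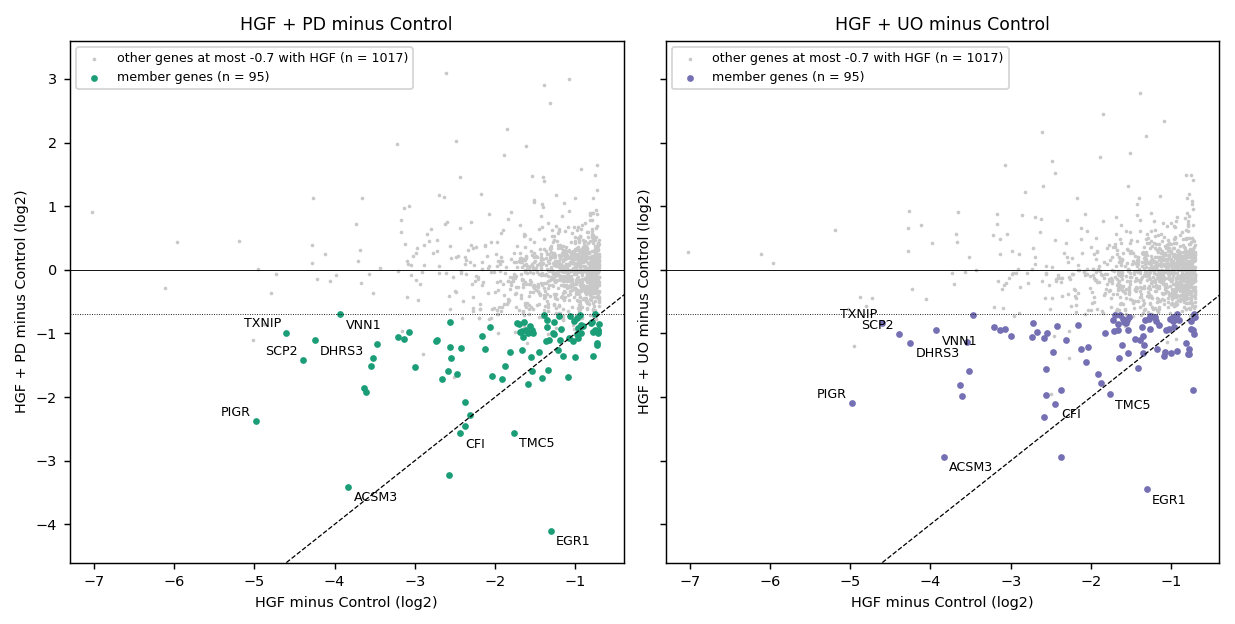
Difference from Control in HGF (horizontal axis, log2) against that in HGF + PD (left) or HGF + UO (right; vertical axes, log2), 1 point per gene. Coloured points are the 95 genes and grey points the 1017 other genes at or below -0.7 with HGF; the dotted line marks the threshold of -0.7 and the dashed line equal differences, so EGR1 lies far below equality while TXNIP, SCP2, DHRS3 and VNN1 lie far above it.

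The order of the 3 HGF groups differed among the genes. HGF was the lowest group in 64 genes, of which 45 had HGF + PD below HGF + UO and 19 the reverse. HGF + PD was the lowest group in 21 genes and HGF + UO in 10. Every HGF array lay below every Control array in 94 of 95 genes, where 27.2% of all 24904 probe sets did so; the same held for HGF + PD in 93 genes (21% of all) and for HGF + UO in 91 (15.6% of all). All 3 groups were free of overlap with Control in 89 genes (4.59% of all), and the rule makes such counts high. The 6 exceptions were RAB15, LBX2, RUFY3, LTBP3, ARID4A and KCTD1.

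At the edge of the rule, the genes just inside were KCTD1, VNN1 and CXCL16, and just outside lay FLVCR1, MCOLN1 and CDH6. The least negative differences of all 6 were -0.70 after rounding, so the border separates values that are practically equal. Leaving out each of the 15 arrays in turn kept 70 of the 95 genes in every run and gave 88 to 103 genes. In 9 genes (ACSM3, PROM1, ABI3BP, SLC46A3, PLCXD3, DAG1, DRC1, RIMKLB and BPI) at least 1 group mean was under 4, close to the lower limit of these intensities, and the size of their differences depends on the background estimate of the summary.

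**Figure D2:**
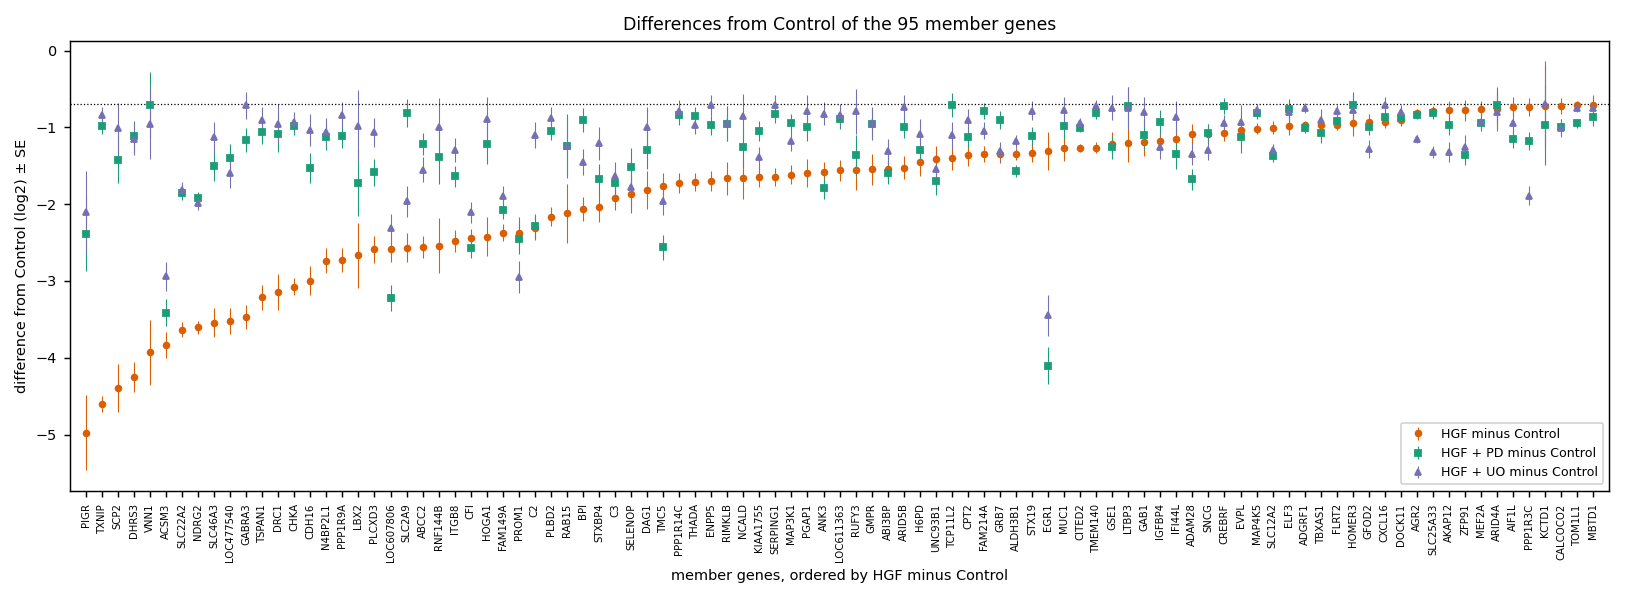
Difference from Control (log2, vertical axis) ± SE of the limma fit for each of the 95 genes (horizontal axis, ordered by HGF minus Control), with circles for HGF, squares for HGF + PD and triangles for HGF + UO. All points lie at or below the dotted line at -0.7 by the rule; the inhibitor groups lie above HGF for most genes on the left, and near or below it on the right.

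The rule bounded each HGF group against Control but did not set the order of the HGF groups, so these were tested against each other with limma over all 24904 probe sets, calling an adjusted p under 0.05. With HGF + PD, 44 of the 95 genes (46.3%) were higher than with HGF, where 30.3% of all probe sets were, and 11 (11.6%) were lower, where 25.1% of all were. With HGF + UO, 53 genes were higher (27.2% of all) and 10 lower (25.2% of all). The rule took genes with a low HGF mean, which favours calls above HGF, so nothing is read from these shares. The median difference from HGF was 0.35 with HGF + PD and 0.46 with HGF + UO in the 95 genes. In the 1017 other genes lowered by HGF it was 1.15 and 1.10. In both comparisons alike, 40 genes rose and 5 fell, and 22 were called in neither. Both comparisons share the HGF arrays, which favours such agreement. The joint shares over all probe sets were not taken, so no weight is put on these counts. A gene cannot rise by more than its HGF fall less 0.7, so the room to rise was set by the rule: among the 33 genes at or below -2 with HGF, 26 rose with HGF + PD and 30 with HGF + UO, and among the 20 genes between -1 and -0.7, 0 and 1 did. In that last class, 5 fell with HGF + PD and 7 with HGF + UO.

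The largest partial return was in TXNIP, which encodes thioredoxin-interacting protein, an arrestin-like inhibitor of thioredoxin and of glucose uptake. Its log2 intensity was 13.78, 13.87, 13.90 and 14.03 in the Control arrays, 9.17, 9.27, 9.64 and 9.09 with HGF, 12.93, 12.90, 13.03 and 12.76 with HGF + PD, and 13.05, 12.96 and 13.14 with HGF + UO. The 4 groups formed 3 bands without overlap: Control on top, both inhibitor groups about 1 log2 unit below, and HGF far lower. HGF alone was 24.3-fold below Control, and HGF + PD and HGF + UO were 1.98-fold and 1.79-fold below. TXNIP rose by 3.61 ± 0.10 with HGF + PD over HGF (limma adjusted p = 1.36e-12) and by 3.76 ± 0.11 with HGF + UO (adjusted p = 2.38e-12). A brighter second probe set of TXNIP was -4.13 with HGF but -0.55 and -0.53 in the inhibitor groups, and did not meet the rule.

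SCP2 encodes sterol carrier protein and a peroxisomal thiolase. It read 10.66, 10.37, 10.67 and 9.99 in Control, 4.95, 5.97, 6.81 and 6.37 with HGF, 8.70, 9.45, 8.91 and 8.94 with HGF + PD, and 9.45, 9.20 and 9.57 with HGF + UO. The inhibitor groups lay between HGF and Control without touching either. The gene rose by 2.98 ± 0.31 with HGF + PD and 3.38 ± 0.33 with HGF + UO over HGF (limma adjusted p = 1.18e-06 and 7.91e-07). Another 4 probe sets were kept. Of these 1 met the rule, and the 3 brighter ones had returned closer to Control, one of them at -1.68 with HGF and -0.20 in both inhibitor groups.

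VNN1 encodes vanin, a pantetheinase that frees cysteamine and pantothenate. Its HGF arrays were widely spread at 5.23, 3.84, 6.48 and 6.55, against 9.36, 9.39, 9.48 and 9.59 in Control. HGF + PD gave 8.63, 8.61, 8.88 and 8.89 and HGF + UO 8.56, 8.52 and 8.43. Both inhibitor groups were narrow and lay just under Control, and VNN1 rose by 3.23 ± 0.43 and 2.98 ± 0.46 over HGF (limma adjusted p = 1.4e-05 and 7.18e-05). Its place in the group is marginal: with HGF + PD it lay at the threshold, it left the group without 4 of the 15 arrays in turn (Control replicate 3 or 4, HGF + PD replicate 1 or 2), and a second probe set was at -2.15, -0.63 and -0.84.

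DHRS3, a retinal reductase that turns retinaldehyde back to retinol, read 11.15, 10.92, 11.16 and 10.57 in Control and 6.35, 6.40, 7.21 and 6.83 with HGF. With HGF + PD it read 9.60, 10.10, 9.82 and 9.85, and with HGF + UO 9.81, 9.5 and 10.09. Again each inhibitor group lay between the other groups with no overlap, and the rises over HGF were 3.14 ± 0.20 and 3.10 ± 0.21 (limma adjusted p = 4.84e-09 and 1.54e-08). GABRA3, a subunit of the GABA-A receptor, rose by 2.31 ± 0.16 and 2.76 ± 0.17. GABRA3 left the group without 4 of the arrays in turn (Control replicate 1 or 4, HGF + UO replicate 2 or 3).

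**Figure D3:**
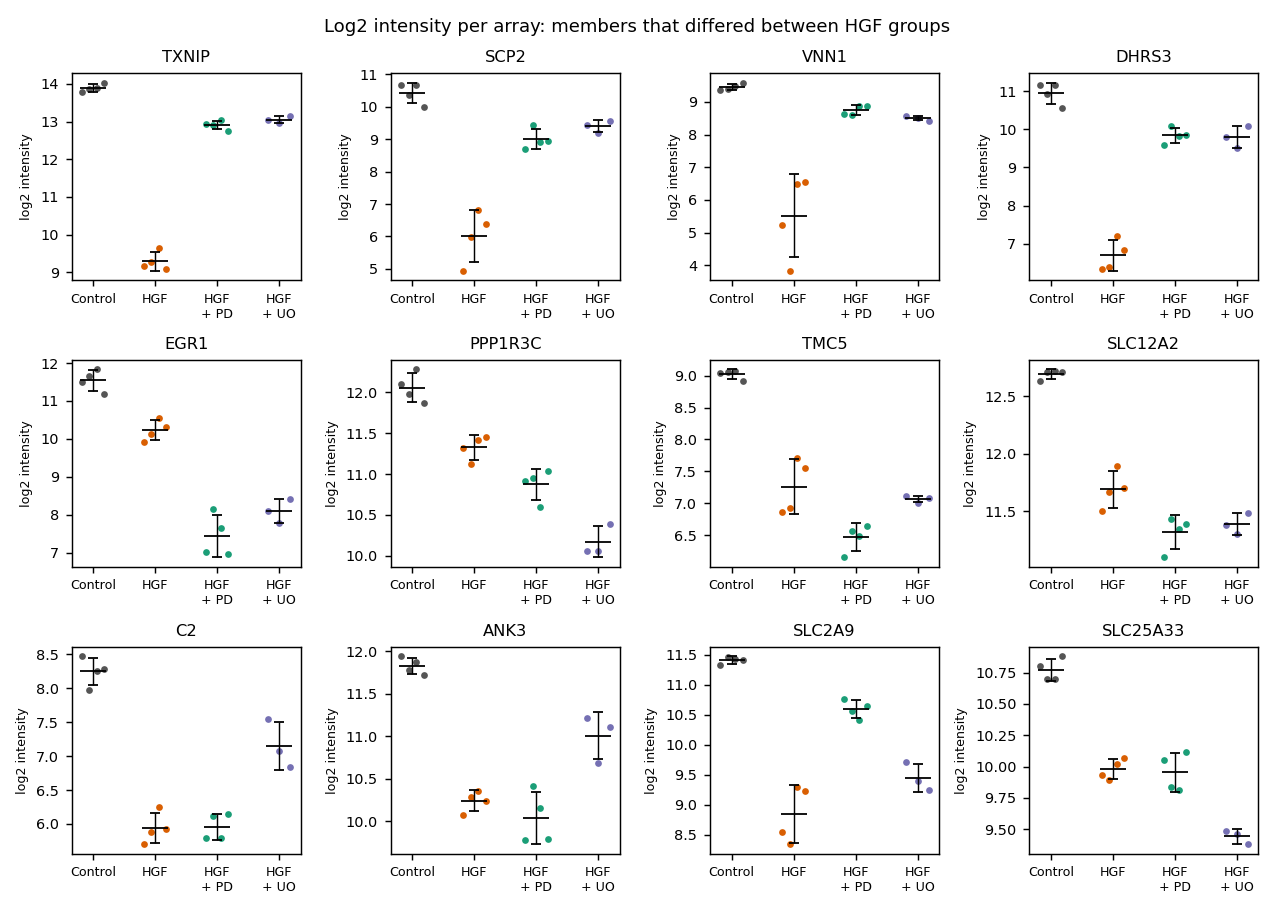
Log2 intensity on each array (vertical axis, a separate scale per gene) for 12 genes in Control, HGF, HGF + PD and HGF + UO; points are arrays, the wide mark is the mean and bars are ± SD (n = 4, 4, 4 and 3). The top row rose with both inhibitors over HGF, the middle row fell further with HGF + PD, and in the bottom row HGF + UO differed from HGF + PD.

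A smaller set stayed lower still under the inhibitors. EGR1 encodes an immediate-early zinc finger transcription factor whose gene is a standard target of ERK signalling. It read 11.50, 11.66, 11.83 and 11.18 in Control, 9.93, 10.13, 10.55 and 10.32 with HGF, 7.02, 8.15, 7.64 and 6.96 with HGF + PD, and 8.09, 7.78 and 8.41 with HGF + UO. HGF arrays lay below every Control array, and every inhibitor array lay below every HGF array. EGR1 fell by 2.79 ± 0.24 on the log2 scale with HGF + PD against HGF (limma adjusted p = 1.8e-07) and by 2.14 ± 0.26 with HGF + UO (adjusted p = 7.48e-06). A second EGR1 probe set gave -1.55, -3.68 and -3.50 from Control in HGF, HGF + PD and HGF + UO.

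EGR1 was the only member among 16 measured genes of a list of ERK feedback and output genes, and it ran against most of that list with HGF. In the list, limma called 10 genes higher and 1 lower with HGF than Control (26.3% and 29.2% of all probe sets), with a median of 1.04. Against HGF, 0 rose and 10 fell with HGF + PD (30.3% and 25.1% of all probe sets), and 0 rose and 12 fell with HGF + UO (27.2% and 25.2% of all). FOSL1, a FOS-family subunit of AP-1, was 2.79 above Control with HGF and -0.01 and -0.02 from it in the inhibitor groups; CCND1, encoding cyclin D1, was 2.53 above with HGF and 0.09 and -0.17 from it under the inhibitors. FOS was 1.00 above Control with HGF and lay at -1.19 and -2.0 under the inhibitors, while DUSP6, an ERK phosphatase, differed from HGF by -0.01 with HGF + PD and -0.74 with HGF + UO.

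PPP1R3C, a glycogen-targeting subunit of protein phosphatase 1, fell with both inhibitors as well. It read 12.10, 11.98, 12.28 and 11.87 in Control, 11.32, 11.12, 11.42 and 11.45 with HGF, 10.92, 10.95, 10.60 and 11.04 with HGF + PD, and 10.06, 10.06 and 10.39 with HGF + UO. The 4 groups stepped down in that order without overlap. It fell by 0.45 ± 0.12 with HGF + PD (limma adjusted p = 0.004) and by 1.16 ± 0.12 with HGF + UO (adjusted p = 1.93e-06), and the gap between the inhibitor groups was -0.71 ± 0.12 (adjusted p = 0.00375). Its second probe set ran the same way, at -0.57, -1.05 and -1.77 from Control, though with HGF it fell short of the rule. PPP1R3C left the group without Control replicate 3 or HGF replicate 2.

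SLC12A2, the sodium, potassium and chloride cotransporter of the basolateral membrane, fell by 0.37 ± 0.08 with HGF + PD (limma adjusted p = 0.00132) and by 0.30 ± 0.09 with HGF + UO (adjusted p = 0.011, and 0.0549 without HGF + UO replicate 2). Its dimmer probe sets were at -0.47 and -0.49 from HGF with HGF + PD, but only at -0.07 and -0.14 with HGF + UO. TMC5, a member of the transmembrane channel-like family, fell by 0.80 ± 0.17 with HGF + PD (adjusted p = 0.000855) and was at -0.19 ± 0.18 with HGF + UO (adjusted p = 0.402). ADAM28, a membrane metalloprotease, fell by 0.59 ± 0.13 with HGF + PD (adjusted p = 0.00175). ZFP91 fell by 0.58 ± 0.14 and 0.48 ± 0.15, the second with an adjusted p of 0.0613 without HGF + UO replicate 3, and its 2 brighter probe sets were between -0.50 and 0.08 from Control. The other genes lower with HGF + PD were LOC607806, AIF1L, CALCOCO2, TOM1L1 and ALDH3B1, and with HGF + UO they were PROM1, AKAP12, SLC25A33, GFOD2, AGR2 and CALCOCO2, by 0.23 to 0.65 in size. Some of these calls were fragile: that of CALCOCO2 was lost in 4 of 15 runs that left out 1 array with HGF + PD and in 7 with HGF + UO (limma adjusted p up to 0.117 and 0.189). That of ALDH3B1 with HGF + PD was lost in 3 (HGF replicate 3 or 4, or HGF + PD replicate 1; up to 0.0752), and that of GFOD2 with HGF + UO without HGF + UO replicate 2 (0.108). Other probe sets also disagreed on the order, since both brighter CALCOCO2 probe sets lay 0.09 to 0.18 above HGF in the inhibitor groups and 1 of 2 other AIF1L probe sets lay 0.85 above it with HGF + PD.

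For the 22 genes called in neither comparison the intervals say how much could have been missed. In 8 of them (SNCG, TBXAS1, DOCK11, FLRT2, MEF2A, ELF3, MBTD1 and CXCL16) both 95% intervals against HGF lay within 0.5 log2 units of 0. In the other 14 at least 1 interval reached further, at the widest from -1.19 to 1.23 in KCTD1 with HGF + UO. The bounds furthest from 0 were those of RAB15, 1.70 with HGF + PD and 1.76 with HGF + UO. A p above the threshold does not show that these genes had the same level in the 3 HGF groups.

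The 12 genes furthest below Control in every HGF group were ACSM3, PROM1, LOC607806, CFI, PIGR, NDRG2, FAM149A, SLC22A2, TMC5, C3, SELENOP and UNC93B1. Their least negative differences ran from -2.94 in ACSM3 to -1.42 in UNC93B1. By the probe sets chosen, 5 of them rose over HGF under both inhibitors: PIGR, NDRG2 and SLC22A2 by 1.62 to 2.88, and ACSM3 and FAM149A by 0.30 to 0.89. Other probe sets of PIGR and NDRG2 rose less or not at all, as given below. The calls of ACSM3 and FAM149A with HGF + PD were lost in 9 and 7 of the 15 runs that left out 1 array. C3, SELENOP and UNC93B1 were called in neither comparison.

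**Figure D4:**
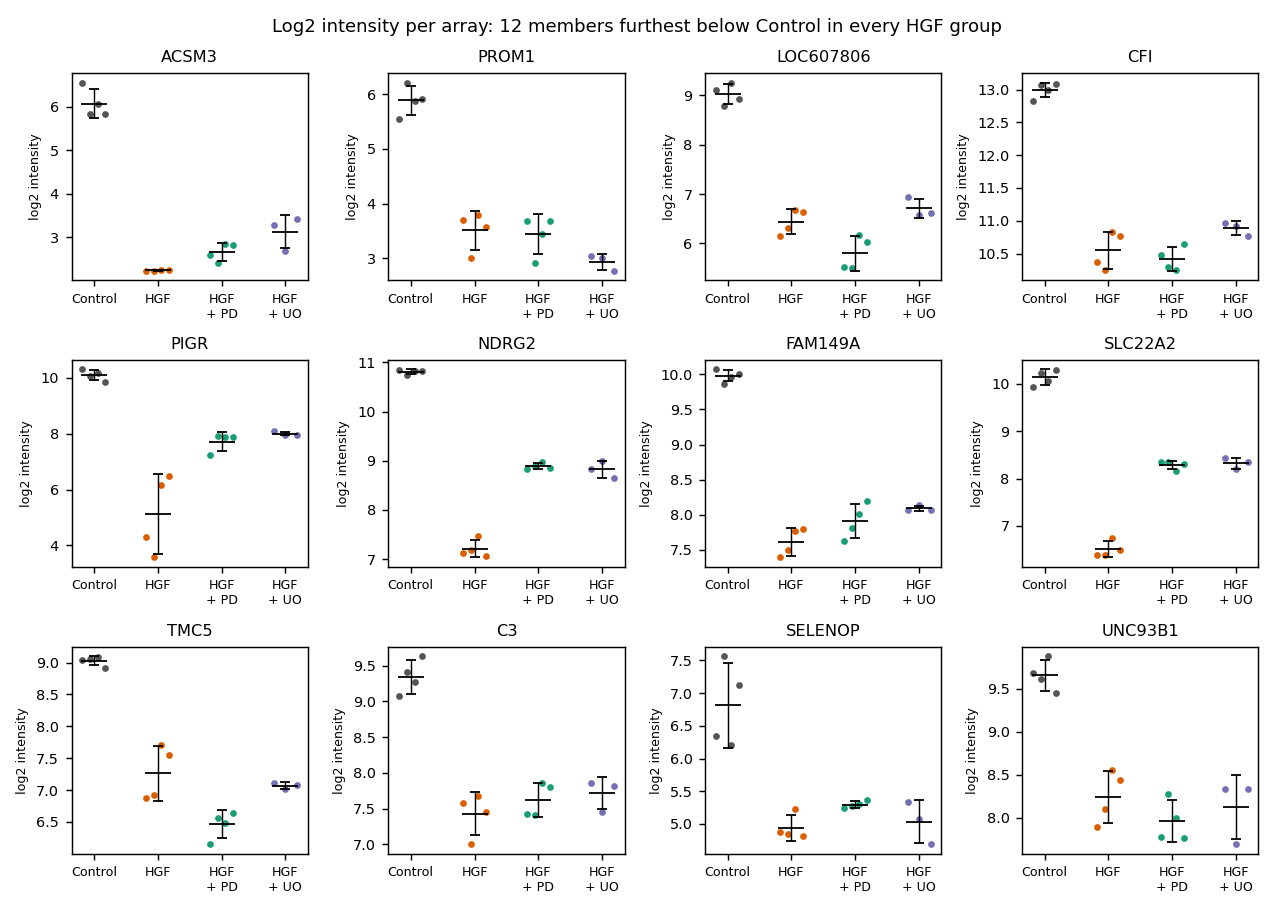
Log2 intensity on each array (vertical axis, a separate scale per gene) of the 12 genes furthest below Control in every HGF group; points are arrays, the wide mark is the mean and bars are ± SD (n = 4, 4, 4 and 3). No array of an HGF group reaches the Control arrays, and NDRG2 and SLC22A2 show inhibitor groups midway between HGF and Control, whereas the HGF groups of C3 and UNC93B1 overlap each other.

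The genes are taken below by what they do. This grouping was made after their values were seen, and it is a way of ordering them with no test attached. Complement proteins and proteins of mucosal defence are made by many epithelia, where they act at the surface and in secretions. CFI encodes complement factor I, the protease that inactivates C3b and C4b. It read 12.83, 13.07, 12.99 and 13.08 in Control, 10.37, 10.25, 10.83 and 10.76 with HGF, 10.48, 10.30, 10.25 and 10.65 with HGF + PD, and 10.97, 10.92 and 10.77 with HGF + UO. HGF overlapped both inhibitor groups, HGF + UO lay just above HGF + PD, and every array of the 3 groups was far under the lowest Control array. CFI was 5.44-fold, 5.94-fold and 4.30-fold below Control, and its 2 other probe sets gave -2.93 and -2.55 with HGF, -2.61 and -2.62 with HGF + PD, and -2.03 and -2.18 with HGF + UO.

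C3, the central complement component, read 9.07, 9.41, 9.27 and 9.63 in Control, 7.58, 7.00, 7.68 and 7.45 with HGF, 7.43, 7.41, 7.86 and 7.80 with HGF + PD, and 7.86, 7.45 and 7.82 with HGF + UO. The HGF groups overlapped throughout. Against HGF, C3 differed by 0.20 with a 95% interval from -0.16 to 0.55 under HGF + PD and by 0.28 with an interval from -0.10 to 0.67 under HGF + UO. All 4 other C3 probe sets were below Control in the 3 groups, between -3.32 and -0.62.

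C2, the serine protease of the classical and lectin convertase, set the inhibitors apart. It read 8.47, 7.98, 8.26 and 8.29 in Control, 5.70, 5.88, 6.25 and 5.93 with HGF, 5.79, 6.11, 5.80 and 6.14 with HGF + PD, and 7.54, 7.07 and 6.84 with HGF + UO. HGF and HGF + PD overlapped, and all HGF + UO arrays lay between them and Control. A brighter C2 probe set behaved alike, at -1.57, -1.45 and -0.57 from Control, but 2 others were above Control in all 3 groups, by 0.37 to 0.82, so the probe sets that carry this symbol disagree. SERPING1, the C1 inhibitor, read 9.49 to 9.75 in Control, 7.90 to 8.07 with HGF, 8.45 to 9.10 with HGF + PD and 8.88 to 8.95 with HGF + UO. It rose over HGF by 0.82 ± 0.12 and 0.93 ± 0.12 (limma adjusted p = 2.5e-05 and 1.64e-05).

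The other complement genes measured did not meet the rule, though some of them were also below Control in every HGF group. In a list of complement components and regulators made after these genes were seen, 4 of 17 measured genes belonged to the group. C1S, a protease of the C1 complex, was -1.66 from Control with HGF but -0.15 and -0.21 under the inhibitors, and C1R was at -0.95, -0.42 and -0.26. CD59, which blocks the membrane attack complex, was 0.65 above Control with HGF.

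PIGR encodes the receptor that carries polymeric IgA and IgM through epithelial cells. It read 10.30, 10.08, 10.17 and 9.87 in Control, 4.29, 3.57, 6.15 and 6.50 with HGF, 7.22, 7.92, 7.87 and 7.87 with HGF + PD, and 8.08, 7.96 and 7.97 with HGF + UO. HGF arrays differed by almost 3 log2 units among themselves but none reached an inhibitor array, and no inhibitor array reached Control. The rises over HGF were 2.59 ± 0.49 and 2.88 ± 0.53 (limma adjusted p = 0.000369 and 0.000319). Of 5 other PIGR probe sets, 4 met the rule, and the brightest, at -0.02, -0.19 and 0.14 from Control, did not. None of the 5 showed a rise of this size. They differed from HGF by -0.17 to 0.29 with HGF + PD and by 0.02 to 0.43 with HGF + UO. Some of them were dim even in Control, at 4.70 to 5.28.

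A further 4 genes act in defence and innate sensing. BPI, a protein that binds bacterial lipopolysaccharide, rose over HGF by 1.16 ± 0.16 with HGF + PD and 0.61 ± 0.17 with HGF + UO (limma adjusted p = 1.82e-05 and 0.00714), from HGF values of 3.56 to 3.74 that are near the lower limit. A brighter BPI probe set was at -0.69, -0.29 and -0.64 from Control. It lay 0.40 above HGF with HGF + PD and 0.05 above it with HGF + UO. UNC93B1, which escorts Toll-like receptors to endosomes, was -1.42, -1.70 and -1.54 from Control, CXCL16, a membrane-bound chemokine, -0.93, -0.86 and -0.70, and IFI44L, an interferon-induced gene, -1.15, -1.35 and -0.87. None of these 3 was called against HGF in the inhibitor groups. IFI44L was the only one of 23 measured interferon-induced genes in the group. Its brighter probe sets did not meet the rule. They were at -0.81, -0.84 and -0.37, and at -0.77, -0.92 and -0.58, from Control in HGF, HGF + PD and HGF + UO.

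Transporters and apical membrane proteins define the working tubule cell. SLC22A2, the organic cation transporter of the proximal tubule, read 9.93, 10.24, 10.07 and 10.30 in Control, 6.38, 6.39, 6.75 and 6.50 with HGF, 8.35, 8.34, 8.17 and 8.30 with HGF + PD, and 8.43, 8.20 and 8.34 with HGF + UO. Both inhibitor groups sat midway, keeping 51.0% and 50.0% of the HGF difference on the log2 scale. The rises over HGF were 1.78 ± 0.10 and 1.82 ± 0.10 (limma adjusted p = 1.13e-09 and 2.52e-09), and a second probe set was at -2.92, -1.56 and -1.48 from Control. ABCC2, an apical export pump for conjugated compounds, rose by 1.34 ± 0.15 and 1.01 ± 0.16. SLC46A3, a lysosomal transporter, rose by 2.04 ± 0.19 and 2.41 ± 0.21.

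SLC2A9, a urate and hexose transporter, differed between the inhibitor groups. It read 11.33, 11.47, 11.44 and 11.41 in Control, 8.54, 8.34, 9.30 and 9.23 with HGF, 10.76, 10.57, 10.41 and 10.65 with HGF + PD, and 9.71, 9.39 and 9.25 with HGF + UO. HGF + PD lay above all HGF + UO arrays, and 1 HGF + UO array was inside the HGF range. The rise over HGF was 1.75 ± 0.18 with HGF + PD (limma adjusted p = 1.27e-06) and 0.60 ± 0.20 with HGF + UO (adjusted p = 0.0193). The latter call was lost without HGF replicate 1 or 2 or HGF + UO replicate 1, with an adjusted p of up to 0.0952. SLC12A2 and SLC22A2 were the 2 members among 22 measured genes of a list of kidney tubule transporters and channels, in which 5 genes were higher and 8 lower with HGF, against 26.3% and 29.2% of all probe sets.

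CDH16, or kidney-specific cadherin, read 10.88, 10.67, 10.93 and 10.59 in Control, 7.60, 7.29, 8.20 and 8.0 with HGF, 8.86, 9.61, 9.16 and 9.34 with HGF + PD, and 9.87, 9.48 and 9.86 with HGF + UO. Each inhibitor array lay between the HGF and the Control arrays. The gene rose over HGF by 1.47 ± 0.19 and 1.96 ± 0.21 (limma adjusted p = 1.17e-05 and 1.5e-06); a second probe set ran the same way and another, dimmer one was 0.50 above Control with HGF. It was the 1 member among 32 measured junction and polarity genes. PROM1, a protein of apical membrane protrusions, was near the lower limit, at 3.00 to 3.79 with HGF, 2.92 to 3.69 with HGF + PD and 2.78 to 3.04 with HGF + UO against 5.55 to 6.21 in Control. Its fall with HGF + UO against HGF, by 0.58 ± 0.21 (limma adjusted p = 0.0337), was lost in 6 of 15 runs that left out 1 array, with an adjusted p of up to 0.118. MUC1, the transmembrane mucin, was -1.27, -0.99 and -0.77 from Control, and rose over HGF with HGF + UO by 0.50 ± 0.17 (adjusted p = 0.0246; up to 0.0735 in the 4 of 15 runs that lost the call). Of 39 measured genes of the primary cilium and its transport, 0 were in the group, which holds 0.924% of all genes, so little can be read from that count. In this list 30 genes were lower with HGF (29.2% of all probe sets) and 31 rose with HGF + PD over HGF (30.3% of all).

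ACSM3, a mitochondrial medium-chain acyl-CoA synthetase, leads the list by depth but read 2.23, 2.23, 2.24 and 2.24 with HGF, values at the lower limit. Control was 6.55, 5.83, 6.06 and 5.83, HGF + PD 2.58, 2.40, 2.83 and 2.82, and HGF + UO 3.28, 2.69 and 3.41. Its rise with HGF + UO, 0.89 ± 0.18 (limma adjusted p = 0.000824), held without each array but not with 16 added to the intensities, where it was 0.26 (adjusted p = 0.0568), whereas that with HGF + PD, 0.42 ± 0.17 (adjusted p = 0.048), was lost in 9 of 15 such runs with an adjusted p of up to 0.121. A much brighter ACSM3 probe set was at 0.21, 0.08 and -0.22 from Control and did not follow. CPT2, the inner carnitine palmitoyltransferase of mitochondria, was -1.37, -1.12 and -0.90 from Control; its 0.46 ± 0.15 rise with HGF + UO (adjusted p = 0.0148) had an adjusted p of 0.0703 and 0.0784 without HGF + UO replicate 1 and 3. A brighter CPT2 probe set was at -1.08, -0.67 and -0.61 from Control, and a dimmer one at -1.12, -0.95 and -0.68. Neither met the rule. CPT2 and ACSM3 were the 2 members among 26 measured genes of fatty acid oxidation and peroxisomes. SCP2 was not on that list.

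Patterns differed among 3 other enzymes. CHKA, a choline kinase, rose over HGF by 2.09 ± 0.11 and 2.15 ± 0.12 (limma adjusted p = 8.27e-10 and 1.66e-09). A dimmer CHKA probe set rose less, by 0.47 and 0.80. It was at -0.49 from Control with HGF + UO and did not meet the rule. HOGA1, a mitochondrial aldolase of hydroxyproline breakdown, rose by 1.20 ± 0.26 and 1.54 ± 0.28. Both other HOGA1 probe sets were brighter and did not meet the rule. They differed from HGF by 0.73 and -0.005 with HGF + PD, and by 0.92 and 0.52 with HGF + UO. H6PD, which makes NADPH in the endoplasmic reticulum, differed from HGF by 0.15 ± 0.18 and 0.36 ± 0.20 and was called in neither comparison.

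Among genes of signalling and transcription, NDRG2 encodes a cytoplasmic protein linked to growth arrest. It read 10.85, 10.75, 10.83 and 10.82 in Control, 7.12, 7.18, 7.46 and 7.07 with HGF, 8.84, 8.89, 8.97 and 8.85 with HGF + PD, and 8.84, 8.99 and 8.65 with HGF + UO. The inhibitor groups overlapped each other and were clear of both HGF and Control, with rises over HGF of 1.68 ± 0.09 and 1.62 ± 0.09 (limma adjusted p = 6.28e-10 and 2.49e-09). The 2 dimmer NDRG2 probe sets rose less, by 0.67 and 0.53 with HGF + PD and by 0.49 and 0.30 with HGF + UO. They stayed at -2.33 and -1.62 from Control with HGF + PD, and at -2.52 and -1.85 with HGF + UO. CITED2, a coactivator that competes with hypoxia-inducible factor for p300, read 11.27 to 11.41 in Control, 9.98 to 10.21 with HGF, 10.29 to 10.40 with HGF + PD and 10.32 to 10.47 with HGF + UO, and rose by 0.26 ± 0.05 and 0.33 ± 0.06 (adjusted p = 0.000808 and 0.000253). TXNIP and CITED2 were the 2 members among 23 measured FOXO targets and quiescence genes, of which 5 were higher and 12 lower with HGF, against 26.3% and 29.2% of all probe sets.

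GAB1, the MET adaptor named above, was -1.20, -1.10 and -0.80 from Control and differed from HGF by 0.10 ± 0.18 and 0.39 ± 0.19, with neither called. GRB7, an adaptor for receptor tyrosine kinases, was -1.35, -0.90 and -1.31 from Control and rose over HGF with HGF + PD, by 0.45 ± 0.12 (limma adjusted p = 0.00415), while with HGF + UO it differed by 0.04 ± 0.12. MAP3K1, a kinase of the JNK and ERK cascades, rose by 0.67 ± 0.12 with HGF + PD (adjusted p = 0.000255) and by 0.44 ± 0.13 with HGF + UO (adjusted p = 0.0115, and 0.0708 without HGF + UO replicate 3). ELF3, an epithelial ETS factor and the 1 member among 23 measured nephron and epithelial transcription factors, was -0.98, -0.76 and -0.80 from Control and was called in neither comparison. AKAP12, a scaffold for protein kinase A and the 1 member among 29 measured genes of cAMP, calcium and phosphoinositide signalling, fell with HGF + UO by 0.54 ± 0.14 (adjusted p = 0.0038). Its 3 other probe sets were -0.69 to -0.55 with HGF, just short of the rule, and -1.29 to -1.13 with HGF + UO.

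Among genes of adhesion and the membrane skeleton, ANK3 differed between the inhibitor groups. It encodes ankyrin-G, which ties lateral membrane proteins to spectrin, and it read 11.94, 11.78, 11.87 and 11.72 in Control, 10.07, 10.29, 10.36 and 10.24 with HGF, 9.78, 10.41, 10.15 and 9.79 with HGF + PD, and 11.22, 10.69 and 11.11 with HGF + UO. HGF and HGF + PD overlapped, and HGF + UO lay above both and below Control. Of 7 other ANK3 probe sets, all had HGF + UO above HGF + PD, by 0.27 to 0.57, but 6 had HGF + PD above HGF, by 0.20 to 0.46, where the chosen one was at -0.21 ± 0.14. Those 6 also did not meet the rule, and the ones brighter than the chosen were at -0.52 to -0.42 from Control with HGF + UO. ITGB8, an integrin subunit that activates latent TGF-beta, rose over HGF by 0.84 ± 0.14 and 1.19 ± 0.15 (limma adjusted p = 0.000149 and 1.28e-05). EVPL, or envoplakin, a desmosomal plakin, was -1.03, -1.13 and -0.93 from Control and was called in neither comparison.

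The inhibitor groups were then compared with each other as treated, since the doses differ and a dose effect and a compound effect cannot be told apart. Of the 95 genes, 6 were higher with HGF + UO (2.55% of all probe sets), 4 were lower (6.66% of all) and 85 were not called. C2 was 1.19 ± 0.17 higher with HGF + UO (limma adjusted p = 0.00111), ANK3 0.97 ± 0.15 (adjusted p = 0.00173) and LOC607806 0.91 ± 0.18 (adjusted p = 0.00829). CFI, ADGRF1 and ALDH3B1 were the other 3, and only C2, ANK3 and LOC607806 were called without HGF + UO replicate 1, which gave 3 in place of 6. The call of CFI, at 0.47 ± 0.13, was lost in 9 of 15 runs that left out 1 array and that of ADGRF1 in 6.

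The 4 genes lower with HGF + UO than with HGF + PD were called in every such run. SLC2A9 was at -1.15 ± 0.20 (limma adjusted p = 0.00328), with -0.82 in its second probe set, and PPP1R3C was at -0.71 ± 0.12, with -0.72 in its second. SLC25A33, a mitochondrial pyrimidine nucleotide carrier, read 10.70 to 10.88 in Control, 9.89 to 10.07 with HGF, 9.81 to 10.12 with HGF + PD and 9.38 to 9.49 with HGF + UO, a gap of -0.51 ± 0.08 (adjusted p = 0.00191). AGR2, a protein disulphide isomerase of secretory cells, was at -0.32 ± 0.05 (adjusted p = 0.00259), with 11.20 to 11.33 in HGF + UO below the 11.50 to 11.71 of HGF + PD, and a second probe set gave -0.46.

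Probe sets that were not chosen read the same RNA. A gene entered if any of its probe sets met the rule, so those that meet it here were also picked by it, and they give no independent support. Another probe set was kept for 66 of the 95 genes, 132 in all. Of these, 119 (90.2%) were below Control in all 3 HGF groups, where 26.3% of all probe sets were. The full rule was met by 47 of the 119 (35.6% of the 132), where 0.767% of all probe sets met it. Nothing is read from either share, since these genes were chosen by a low probe set on the same arrays. Their medians were -1.04, -0.81 and -0.68 with HGF, HGF + PD and HGF + UO. The 2 that were above Control in all 3 groups both carried the symbol C2. In 31 genes another probe set was brighter than the one chosen, and choosing the brightest before applying the rule left 64 of the 95 genes.

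Over 18 lists with 408 measured genes (3.97% of all genes), 13 genes of the group (13.7%) were found on 9 lists. The lists were drawn up with earlier results known, so no weight is put on these shares. None was found on the lists of STAT3 targets, WNT, Notch, and BMP, TGF-beta and activin genes, guidance cues, basement membrane, clock, cilium, and amino acid and xenobiotic metabolism. Some of the 95 genes are neighbours in the RefSeq annotation of assembly UU_Cfam_GSD_1.0, to which 93 were matched. ALDH3B1 lies next to UNC93B1 and KIAA1755 next to BPI, with 0 protein-coding genes between, while H6PD and SLC25A33, and TOM1L1 and STXBP4, have 1 gene between them and CPT2 and SCP2 have 2. Neighbours did not always share a pattern: CPT2 kept 82.4% and 66.0% of its HGF difference under HGF + PD and HGF + UO, and SCP2 kept 32.3% and 23.0%.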

How the data were processed

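The analysis used 15 arrays of dog MDCK cells. The deposited values are linear intensities per probe set that the authors made with GCRMA, per the submitters' processing notes. The version of GCRMA is not stated in the sources used. GCRMA subtracts a background estimated from probe sequence and compresses dim probe sets towards a floor, which affects large fold changes of dim genes. Log2 was taken with no further scaling. Of 43035 probe sets, 111 controls were left out, and those with log2 of at least 4 on 3 or more arrays were kept (24904, of which 18490 carried 1 symbol in the platform annotation).

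Groups were taken from the labels. limma 3.58.1 in R 4.3.3 (lmFit with 1 mean per group over all arrays, eBayes with trend) gave differences ± SE and adjusted p-values (Benjamini-Hochberg over 24904 probe sets, threshold 0.05); Python 3.11.15 did the rest, and the fit was tested on simulated data. Arrays are biological replicates per the labels, which name no separate days, so the p-values reflect only the spread among them, and their number limits the precision. The genes and lists were chosen with earlier results of these data known. Genes named with values were the 12 furthest below Control in every HGF group, up to 6 called genes each way against HGF and 4 between inhibitors, those on a list, at the rule's edge or with a disagreeing probe set; others in the account by role were picked after seeing values. Arrays were not paired by replicate number in the main fit, since the labels do not state a pairing. Promoter sequence was not used here.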

Additional observations from a re-analysis of the deposited data

Results flagged for a closer look

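In groups of 4 arrays, a value counts as standing apart when its gap to the nearest array exceeds Dixon's 95% critical value for the group's range. Over the 95 genes, 285 group values were examined and 17 stood apart; chance gives about 1 in 20. The HGF + UO group, with 3 arrays, was not examined. On the log2 scale, Control arrays stood apart in ALDH3B1 (replicate 3, 10.87 against 10.76 to 10.78), KCTD1 (replicate 1, 7.71 against 7.19 to 7.26), SLC12A2 (replicate 1, 12.63 against 12.71 to 12.72) and STX19 (replicate 3, 9.03 against 9.42 to 9.49).

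HGF arrays stood apart in CALCOCO2 (replicate 3, 8.64 against 8.34 to 8.38), GSE1 (replicate 1, 4.48 against 4.63 to 4.65), IFI44L (replicate 1, 5.94 against 6.00 to 6.01) and LBX2 (replicate 2, 4.14 against 5.12 to 5.15). The same held for PLCXD3 (replicate 1, 3.01 against 2.41 to 2.48), RAB15 (replicate 4, 5.40 against 4.69 to 4.77), RIMKLB (replicate 3, 3.96 against 3.16 to 3.26) and SELENOP (replicate 3, 5.23 against 4.81 to 4.87).

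HGF + PD arrays stood apart in DAG1 (replicate 2, 3.84 against 4.41 to 4.45), GFOD2 (replicate 1, 7.93 against 8.17 to 8.22), HOMER3 (replicate 1, 5.09 against 5.18 to 5.20), MBTD1 (replicate 3, 5.74 against 5.98 to 6.02) and PIGR (replicate 1, 7.22 against 7.87 to 7.92). KCTD1 is also a gene at the edge of the rule, and it left the group without Control replicate 1.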

How the results depend on the processing

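The group held 95 genes under the rule, 205 with a threshold of -0.5 and 39 with a threshold of -1. It held between 64 and 99 under the other filters, scalings, the group medians, the added pseudocount, the earlier choice of probe set and, chosen after seeing the data, every group mean at or above 4; leaving out each array in turn gave 88 to 103. Against HGF, leaving out arrays gave 40 to 46 genes higher and 9 to 11 lower with HGF + PD, and 42 to 54 higher and 7 to 10 lower with HGF + UO. Between the inhibitor groups it gave 3 to 8 higher and 4 to 6 lower with HGF + UO, the 3 being without HGF + UO replicate 1. Of the calls, 49 of 55, 45 of 63 and 7 of 10 held without each array in turn. Requiring other probe sets only to be below 0 in all 3 groups counted 119 in place of 47. The deviations of same-numbered arrays had a median r of 0.05 (from -0.25 to 0.41 over 21 pairs). Other pairs had a median of 0.01 (from -0.49 to 0.40). With so few arrays per group this cannot settle whether the numbers pair them. With the replicate number as a block the counts were 44 and 11, 51 and 9, and 9 and 4. Over all genes, comparisons and alternatives, 155 calls were lost, 63 were gained and 6304 outcomes stayed on the same side of the threshold; no called difference changed sign. Signal near the lower limit of the intensities limits the size of the differences in the 9 genes with a group mean under 4.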
